A study of Mus musculus with 15 samples.

Results

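The 10 genes described here encode the MCM replicative helicase and the factors that load and start it, namely Mcm2, Mcm3, Mcm4, Mcm5, Mcm6, Mcm7, Mcm10, Cdc6, Cdt1 and Cdc45, and all 10 were found by symbol among the 24982 genes listed in the count files. They were chosen by their measured values in these same libraries, in which Mcm3 stood out between the groups, so their levels and fold changes are given as a description with no test. RNA-seq was carried out on the aortas, taken whole, of 15 male mice of the C57BL/6 strain at an age of 10 months, with 1 aorta per library and 5 mice per group, to ask how androgen alters the aortic transcriptome. Control mice were sham-operated, orchiectomized mice had the testes removed, and the third group was orchiectomized and carried a pellet of dihydrotestosterone (DHT), an androgen that cannot be converted to estrogen. All 15 mice had 2 weeks of recovery and then received aldosterone at 200 µg per kg per day by osmotic minipump with 0.9% NaCl and 0.2% KCl in the drinking water (Aldo-salt) for 7 days, and no aorta without Aldo-salt was analysed here. The pellet supplies hormone independently of the testis, so the DHT group is a replacement and not a return to the intact animal.

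DNA replication is licensed in G1 phase, when the origin recognition complex together with Cdc6 and Cdt1 loads rings of Mcm2 to Mcm7 onto DNA. In S phase Cdc45 and the GINS complex join a loaded ring to turn it into the active helicase, and Mcm10 promotes that start. The genes are transcribed chiefly in cycling cells, many of them under E2F transcription factors, whereas smooth muscle cells of the adult aorta are mostly quiescent. In bulk libraries such as these, fewer cycling cells and less RNA per cell cannot be told apart.

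Promoter sequences were examined because many of these genes are known targets of E2F. RefSeq promoters (250 bases before to 50 after the annotated start, GRCm38.p6, the mm10 build) were at hand for 9 of the 10 genes, with the exception of Mcm4. The 4 forms of the E2F site that were searched on both strands were TTTCCCGC, TTTCGCGC, TTTGCCGC and TTTGGCGC, and matches on opposite strands may overlap. At least 1 match in any promoter was present for 6 of 9 genes, or 66.7%, against 2.6% of all 27025 genes with a RefSeq promoter. Counted by promoter it was present in 6 of 10, or 60%, against 2.26% of all 32851 promoters of the same length. Shown here are the 4 helicase subunits with a match (Mcm3, Mcm5, Mcm6 and Mcm7), the loading factor Cdt1, and Cdc45 as a member without a match. Each is printed 5′ to 3′ on the strand of the gene with the matched bases in capitals.
Mcm3, chr1:20820263-20820562, minus strand: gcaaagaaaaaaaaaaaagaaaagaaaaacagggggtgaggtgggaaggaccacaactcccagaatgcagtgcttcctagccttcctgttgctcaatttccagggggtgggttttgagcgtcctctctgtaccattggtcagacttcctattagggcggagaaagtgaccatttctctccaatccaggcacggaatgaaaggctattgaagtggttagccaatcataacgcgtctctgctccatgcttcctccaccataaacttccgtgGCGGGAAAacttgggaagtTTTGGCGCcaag
Mcm5, chr8:75109259-75109558, plus strand: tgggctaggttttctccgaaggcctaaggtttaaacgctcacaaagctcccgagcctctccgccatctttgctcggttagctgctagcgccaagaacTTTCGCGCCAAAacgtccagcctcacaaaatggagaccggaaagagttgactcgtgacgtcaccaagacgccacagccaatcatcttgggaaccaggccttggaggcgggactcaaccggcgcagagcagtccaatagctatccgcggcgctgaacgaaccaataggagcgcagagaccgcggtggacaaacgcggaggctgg
Mcm6, chr1:128359656-128359955, minus strand: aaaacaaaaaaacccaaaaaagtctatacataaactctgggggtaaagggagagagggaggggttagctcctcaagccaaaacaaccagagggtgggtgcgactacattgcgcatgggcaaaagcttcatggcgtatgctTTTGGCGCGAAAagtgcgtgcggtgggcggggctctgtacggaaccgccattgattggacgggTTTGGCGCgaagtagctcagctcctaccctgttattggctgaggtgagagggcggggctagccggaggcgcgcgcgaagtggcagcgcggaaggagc
Mcm7, chr5:138171834-138172133, minus strand: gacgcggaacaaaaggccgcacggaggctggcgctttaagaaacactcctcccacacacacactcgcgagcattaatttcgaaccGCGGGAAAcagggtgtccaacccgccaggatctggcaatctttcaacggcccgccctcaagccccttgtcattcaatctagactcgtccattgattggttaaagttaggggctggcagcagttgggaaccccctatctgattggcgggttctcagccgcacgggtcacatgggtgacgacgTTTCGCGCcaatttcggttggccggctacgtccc
Cdt1, chr8:122567765-122568064, plus strand: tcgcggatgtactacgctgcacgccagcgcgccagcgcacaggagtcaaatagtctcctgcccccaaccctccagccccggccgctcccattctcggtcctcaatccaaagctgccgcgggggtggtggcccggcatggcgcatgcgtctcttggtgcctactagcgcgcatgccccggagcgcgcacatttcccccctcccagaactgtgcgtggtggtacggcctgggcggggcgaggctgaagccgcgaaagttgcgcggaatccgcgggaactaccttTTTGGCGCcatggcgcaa
Cdc45, chr16:18811923-18812222, minus strand: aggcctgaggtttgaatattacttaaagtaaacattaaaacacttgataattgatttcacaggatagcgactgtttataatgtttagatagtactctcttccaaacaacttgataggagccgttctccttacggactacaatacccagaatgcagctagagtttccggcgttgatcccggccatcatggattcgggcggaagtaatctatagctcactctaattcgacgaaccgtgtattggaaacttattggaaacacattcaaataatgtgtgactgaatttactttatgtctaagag

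The Mcm3 promoter held 2 matches just after the start, which began 19 and 38 bases from it. In Mcm5 both matches overlapped in a single run beginning 153 bases before the start. Mcm6 held 3 matches, 2 of which overlapped, and the Mcm7 promoter shown held 2. A second Mcm7 promoter (chr5:138171217-138171516), which is not shown, held none. The Cdc6 and Cdt1 promoters held 1 match each, whereas Mcm2, Mcm10 and Cdc45 held none in this window. The CCAAT box, the 5-base motif CCAAT read on both strands, was present in a promoter of 7 of 9 genes (77.8%) against 41.1% of all genes, and for 85% of mitosis genes, 62.5% of G1 and S control genes, 58.3% of replication fork genes, 50% of other origin factors and 30% of nucleotide supply genes. In the same gene lists the E2F forms were in a promoter of 33.3% of other origin factors (6 of 18), 37.5% of replication fork genes (9 of 24), 43.8% of G1 and S control genes (7 of 16), 0 of 10 nucleotide supply genes and 5% of mitosis genes (1 of 20). A match is a description of sequence only, and occupancy by any factor was not measured.

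Sequencing depth and the purity of the aortas set the precision of these values. Between 8268957 and 13816864 reads per library were assigned to genes, so that 10 reads corresponded to about 0.915 CPM (reads scaled to the size of the library), and 9 of the 10 genes passed the filter on low counts among 14121 genes tested. The aortic label held, since the summed level of 6 smooth muscle markers, which include Myh11 and Acta2, was at least 9941 CPM in every library, and adipocyte markers were also high, at 2152 to 6871 CPM. Among the orchiectomized libraries, however, replicate 2 carried lung transcripts (Sftpc, a surfactant gene, 22367 reads against 0 in every control) and replicate 3 thymocyte transcripts (Rag1, 612 reads against at most 23 in a control). Replicate 4 carried both kinds at lower levels, with 57 reads of Sftpc and 49 of Rag1. The median fold change and the calls of the 9 genes, and the fold changes and counts of other genes where stated, are therefore also given without orchiectomized replicates 2 and 3, and, as a choice made after these values were seen, without replicates 2, 3 and 4, whereas ring ratios, group overlaps and correlations use all 15 libraries.

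Levels per kb of exon, the scale on which genes can be compared with each other, differed widely among members of the same ring. In control aortas Mcm6 was the most abundant at 15.1 ± 3.35 CPM per kb (SD, n = 5), followed by Mcm7 at 6.04 ± 0.298, Mcm4 at 4.30 ± 1.02, Mcm3 at 3.70 ± 0.479, Mcm2 at 2.74 ± 0.600, Cdc45 at 2.50 ± 0.464 and Mcm5 at 2.10 ± 0.493 CPM per kb. Cdt1 at 0.945 ± 0.359, Cdc6 at 0.263 ± 0.0832 and Mcm10 at 0.122 ± 0.0636 CPM per kb were scarce. The library ranges of Mcm6, Mcm7 and Mcm4 did not overlap in that order, but the neighbours from Mcm4 down to Mcm5 overlapped, as did Cdc6 and Mcm10. Relative to the mean of the other 5 subunits per kb, Mcm6 was 4.28 times as high in the median control library (range 3.01 to 4.82), 3.09 times in the median orchiectomized library (2.05 to 4.96) and 3.24 times with DHT (2.80 to 3.90). Exon lengths were unions over the GENCODE M21 basic transcripts, so an isoform that dominates in the aorta would shift the per-kb values.

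**Figure D1:**
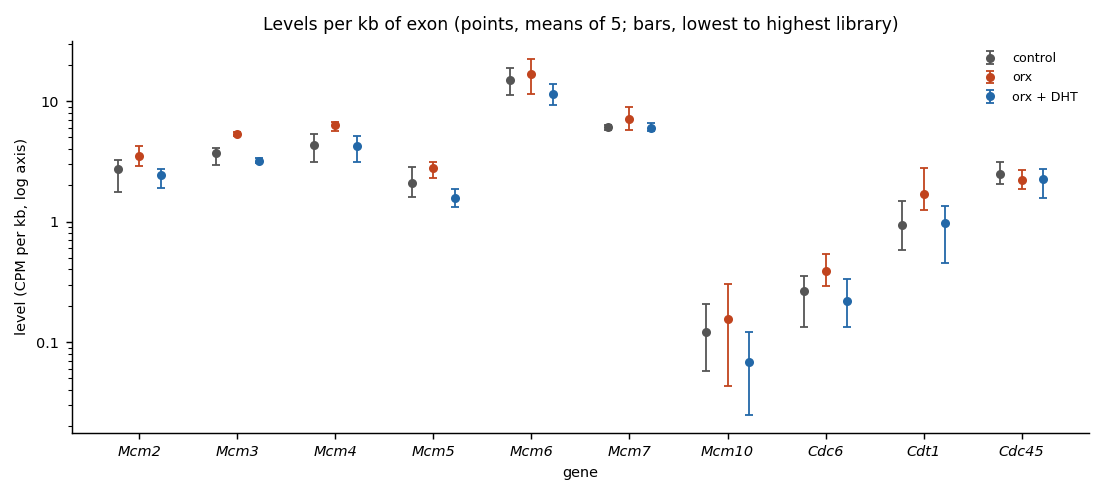
Level of each gene in CPM per kb of exon (log axis) in the control, orchiectomized (orx) and orchiectomized plus DHT groups; points are means of 5 libraries and bars run from the lowest to the highest library. Mcm6 lies above every other gene in all 3 groups, with control and DHT means of 15.1 and 11.4 CPM per kb.

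Relative to its level, Mcm3 had the narrowest orchiectomized and DHT ranges of the 10 genes. This helicase subunit lies on chromosome 1 (mm10, 20802968 to 20820312, minus strand). Its levels in the control libraries were 8.97, 10.6, 12.2, 12.5 and 11.9 CPM for replicates 1 to 5. In the orchiectomized libraries they were 15.7, 16.9, 16.8, 15.5 and 15.9 CPM. With DHT they were 10.3, 9.73, 9.61, 9.50 and 9.31 CPM. Every orchiectomized library lay above every control library and above every DHT library, while control and DHT ranges overlapped. The fold change was 1.44 between orchiectomized and control aortas (log2 0.53, SE 0.10) and 0.600 between DHT and orchiectomized aortas (log2 -0.74, SE 0.10). Between DHT and control aortas the log2 fold change was -0.21 (SE 0.10). The SDs were 0.635 CPM after orchiectomy and 0.359 CPM with DHT.

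Mcm4 gave a similar pattern with a wider spread in the control and DHT groups. The gene is on chromosome 16 (15623897 to 15637400, minus strand). Control libraries held 11.9, 19.2, 11.3, 18.1 and 16.8 CPM. Orchiectomized libraries held 20.1, 22.9, 23.6, 24.1 and 22.3 CPM, and DHT libraries 16.3, 18.4, 15.6, 14.4 and 11.2 CPM. Again no orchiectomized library overlapped either of the other groups. The log2 fold changes were 0.55 (SE 0.16) for orchiectomized against control, -0.57 (SE 0.16) for DHT against orchiectomized and -0.02 (SE 0.16) for DHT against control. Without replicates 2 and 3 the first 2 were 0.51 (SE 0.19) and -0.53 (SE 0.19).

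Mcm5, the least abundant of the 6 ring subunits per kb, was lowest with DHT. It is located on chromosome 8 (75109569 to 75128439, plus strand). Its levels were 5.52, 7.59, 5.94, 7.37 and 9.86 CPM in control libraries. After orchiectomy they were 7.97, 10.6, 10.8, 10.1 and 9.04 CPM, and with DHT 5.30, 6.49, 5.64, 5.18 and 4.55 CPM. All DHT libraries lay below all orchiectomized libraries, but control replicate 5 lay inside the orchiectomized range. The log2 fold change was 0.42 (SE 0.17) for orchiectomized against control, -0.83 (SE 0.17) for DHT against orchiectomized and -0.42 (SE 0.17) for DHT against control.

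Mcm2, encoded on chromosome 6 (88883474 to 88898780, minus strand), was highest in the libraries with lung and thymocyte transcripts. Control libraries held 5.98, 9.55, 10.9, 10.8 and 8.85 CPM. Orchiectomized libraries held 9.69, 14.2, 13.5, 10.4 and 10.7 CPM, the highest values being those of replicates 2 and 3. DHT libraries held 9.15, 8.74, 8.59, 6.42 and 8.48 CPM and all lay below the orchiectomized libraries. The log2 fold changes were 0.34 (SE 0.17) for orchiectomized against control and -0.50 (SE 0.18) for DHT against orchiectomized. Without replicates 2 and 3 the orchiectomized mean was 10.3 ± 0.536 CPM (SD, n = 3), and the log2 fold changes were 0.15 (SE 0.18) and -0.30 (SE 0.18).

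Mcm6, on chromosome 1 (128331590 to 128359664, minus strand), had the widest orchiectomized range of the ring subunits, 1.96-fold from lowest to highest library. Levels in control libraries were 58.1, 82.8, 48.7, 79.7 and 60.6 CPM. Orchiectomized libraries ranged from 50.4 CPM in replicate 2 to 98.6 CPM in replicate 1, with 70.6, 60.9 and 83.5 CPM in replicates 3, 4 and 5. DHT libraries held 61.1, 53.8, 46.9, 46.0 and 40.5 CPM. Control and orchiectomized ranges overlapped (log2 fold change 0.14, SE 0.19), and DHT against orchiectomized gave -0.55 (SE 0.19). The library with lung transcripts was here the lowest of its group, so that leaving out replicates 2 and 3 raised the mean from 72.8 ± 18.9 (n = 5) to 81.0 ± 19.0 CPM (n = 3) and widened the log2 fold changes to 0.28 (SE 0.20) and -0.69 (SE 0.19).

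Mcm7, on chromosome 5 (138164583 to 138172422, minus strand), was nearly constant in 2 of the 3 groups. Control libraries held 17.5, 17.0, 18.8, 17.2 and 18.9 CPM. DHT libraries held 16.8, 17.5, 17.9, 16.8 and 19.3 CPM. Orchiectomized libraries held 20.0, 26.3, 20.5, 22.1 and 17.2 CPM, with replicates 2 and 4 the highest and replicate 5 inside the control range. The log2 fold changes were 0.25 (SE 0.11) for orchiectomized against control and -0.26 (SE 0.11) for DHT against orchiectomized, and they were 0.01 (SE 0.11) and -0.03 (SE 0.11) without replicates 2, 3 and 4. Exons of Mcm7 share 321 bases (10.8%) with Ap4m1 and 64 bases (2.16%) with Cops6 on the opposite strand, and whether reads were counted by strand is not given in the sources used here. The microRNAs Mir25, Mir93 and Mir106b lie within introns of Mcm7, and poly(A) libraries do not measure their mature forms.

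**Figure D2:**
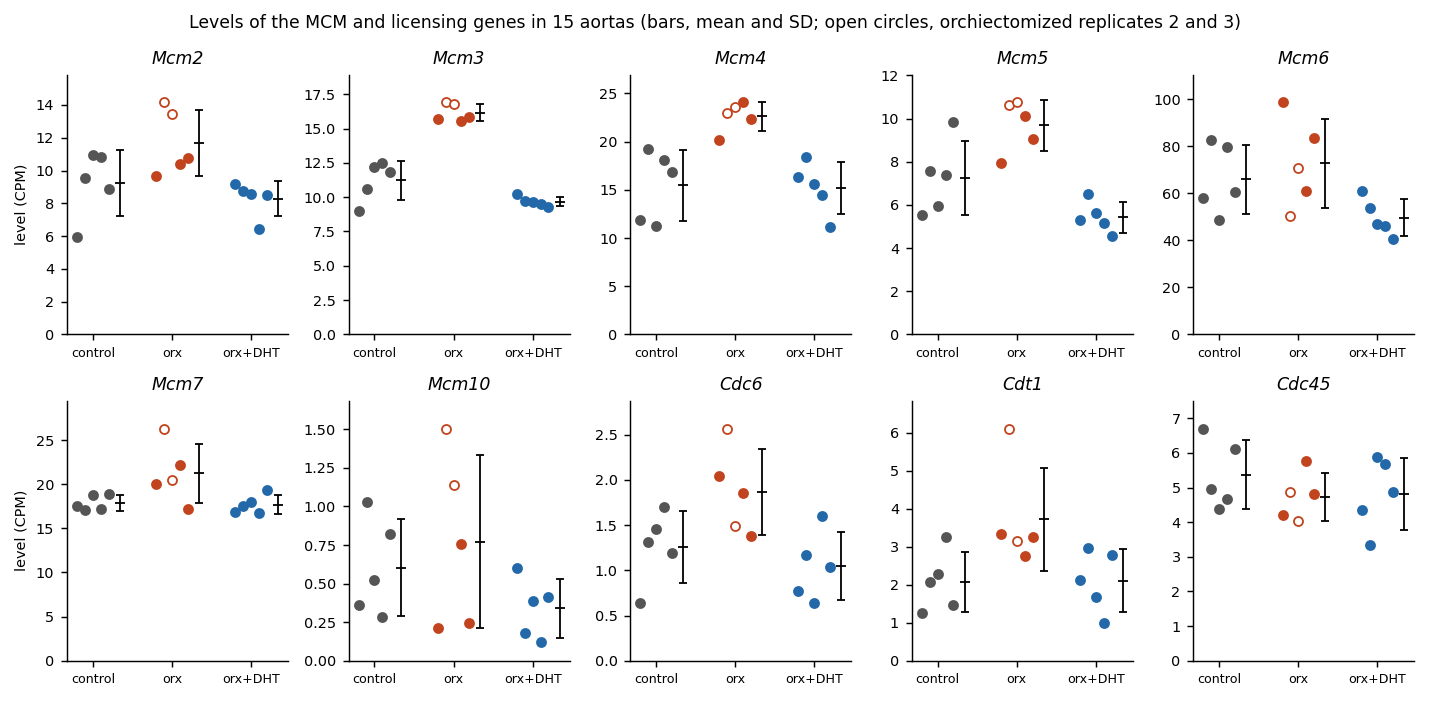
Level in CPM (linear axes from 0) of each of the 10 genes in control, orchiectomized (orx) and orchiectomized plus DHT aortas; each circle is 1 library in replicate order, open circles are orchiectomized replicates 2 and 3, and bars give the mean and SD of 5. For Mcm3 all orchiectomized libraries, at 15.5 to 16.9 CPM, lie above all others, whereas the 3 groups overlap for Cdc45.

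The loading factors were measured from far fewer reads. Cdt1, which brings the MCM ring to the origin (chromosome 8, 122568015 to 122573554, plus strand), had 1.27, 2.06, 2.29, 3.26 and 1.46 CPM in control libraries. After orchiectomy it had 3.34, 6.11, 3.15, 2.75 and 3.26 CPM, and with DHT 2.14, 2.97, 1.67, 0.987 and 2.79 CPM. Replicate 2 stood apart at 6.11 CPM, and the ranges of the groups overlapped. The log2 fold change was 0.84 (SE 0.34) for orchiectomized against control and -0.80 (SE 0.34) for DHT against orchiectomized, or 0.57 (SE 0.36) and -0.53 (SE 0.36) without replicates 2 and 3. These values rest on 8 to 69 reads per library.

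Cdc6, the ATPase that acts with Cdt1 (chromosome 11, 98907801 to 98923940, plus strand), was represented by 5 to 29 reads per library. Its control levels were 0.634, 1.31, 1.46, 1.70 and 1.19 CPM. Orchiectomized levels were 2.05, 2.57, 1.49, 1.86 and 1.38 CPM, and DHT levels 0.770, 1.17, 0.641, 1.60 and 1.03 CPM. All 3 ranges overlapped. The log2 fold changes of 0.56 (SE 0.31) and -0.83 (SE 0.31) were of the same sign as those of Cdt1, and were 0.47 (SE 0.34) and -0.73 (SE 0.35) without replicates 2 and 3.

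The genes that act at the start of unwinding come next. Cdc45, a component of the active helicase (chromosome 16, 18780447 to 18811987, minus strand), had 6.70, 4.96, 4.38, 4.67 and 6.11 CPM in control libraries. It had 4.20, 4.87, 4.02, 5.77 and 4.80 CPM after orchiectomy and 4.36, 3.33, 5.90, 5.68 and 4.86 CPM with DHT. The ranges overlapped in all 3 comparisons, with log2 fold changes of -0.18 (SE 0.19) for orchiectomized against control and 0.02 (SE 0.19) for DHT against orchiectomized, or -0.13 (SE 0.22) and -0.03 (SE 0.23) without replicates 2 and 3. Cdc45 shares 52 exon bases (2.43%) with Ufd1 on the opposite strand. Mcm10 (chromosome 2, 4989714 to 5012791, minus strand) did not pass the count filter, with 1 to 17 reads per library. Its highest levels, 1.50 and 1.14 CPM, were in orchiectomized replicates 2 and 3, and the other 3 orchiectomized libraries held 0.215, 0.756 and 0.244 CPM, inside or below the control range of 0.283 to 1.03 CPM. DHT libraries held 0.599, 0.180, 0.385, 0.123 and 0.414 CPM. With no count filter the log2 fold change of Mcm10 was 0.31 (SE 0.56) for orchiectomized against control and -1.10 (SE 0.59) for DHT against orchiectomized, which its few reads did not resolve.

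Counts of called genes are given next beside the share called among all genes tested, where called means an unadjusted P under 0.01 in edgeR's quasi-likelihood test, the threshold of the study. The values of these contrasts were used in choosing the genes, so nothing is read from the counts. For orchiectomized against control 2 of the 9 genes that passed the filter, Mcm3 and Mcm4, were called higher and none lower (DESeq2 also called 0 lower, and 0 were lower at an unadjusted P under 0.05), where 2.08% of all tested genes were called higher and 1.13% lower. For DHT against orchiectomized 3 genes, Mcm3, Mcm4 and Mcm5, were called lower and none higher (DESeq2 also called 0 higher, and 0 were higher at an unadjusted P under 0.05), where 7.27% of all genes were called lower and 2.46% higher. Mcm3 and Mcm5 also had an adjusted P under 0.05 in that comparison, where 3.8% of all genes were lower at that threshold. The adjusted P of Mcm5 was no longer under 0.05 without orchiectomized replicates 2 and 3, where its log2 fold change was -0.72 in place of -0.83 and it was still called. That of Mcm3 was no longer under 0.05 without replicates 2, 3 and 4, where its log2 fold change was -0.66 in place of -0.74 and it was still called. For DHT against control edgeR called 0 of the 9 genes (2 were lower at an unadjusted P under 0.05, and DESeq2 called 0), where 1.52% of all genes were called higher and 2.01% lower. Orchiectomized libraries were all above control for Mcm3 and Mcm4, a pattern found in 0.991% of tested genes, and DHT libraries were all below orchiectomized for Mcm2, Mcm3, Mcm4 and Mcm5, a pattern found in 4.34%. The orchiectomized libraries enter both of the first comparisons with opposite sign, so these do not inform each other.

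The median log2 fold change of the 9 genes was 0.42 for orchiectomized against control, -0.57 for DHT against orchiectomized and -0.16 for DHT against control, beside medians over all tested genes of 0.04, -0.02 and -0.003. Leaving out orchiectomized replicates 2 and 3 gave medians of 0.31 and -0.53 for the first 2 comparisons. In that set Mcm3 was called higher than control, where 0.559% of all genes were, and Mcm3, Mcm5 and Mcm6 were called lower with DHT, where 3.56% were. Mcm4 lost both of its calls in that set. Leaving out replicates 2, 3 and 4, which keeps 2 orchiectomized libraries, gave medians of 0.39 and -0.59. Mcm3 was then the gene called higher than control (0.477% of all genes), and Mcm3 and Mcm6 were called lower with DHT (1.54% of all genes). The log2 fold change of Mcm3 against control was 0.53, 0.48 and 0.45 in the 3 sets of libraries, that of Mcm4 0.55, 0.51 and 0.42, that of Mcm5 0.42, 0.31 and 0.19, and that of Mcm7 0.25, 0.14 and 0.01, whereas that of Mcm6 was 0.14, 0.28 and 0.42. The value of Mcm6 rested on orchiectomized replicate 1, the highest library, without which it was -0.02, and -0.40 for DHT against orchiectomized.

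**Figure D3:**
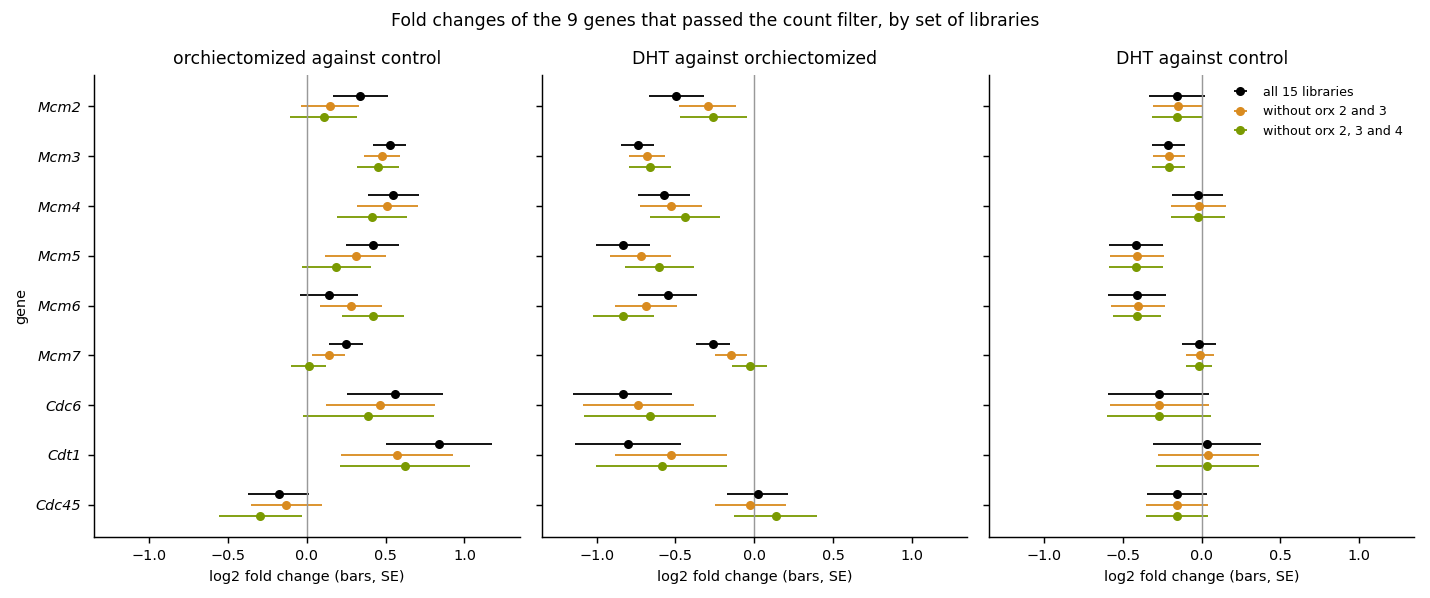
Log2 fold change (points, with SE as bars) of the 9 genes that passed the count filter, in each of the 3 comparisons, from all 15 libraries (black), without orchiectomized replicates 2 and 3 (orange) and without replicates 2, 3 and 4 (green). Mcm3 stays near 0.5 and -0.7 in the first 2 comparisons, and Mcm7 moves from 0.25 to 0.01 as libraries are left out.

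The marker levels of other cell types are given with the ring genes because several differed between the groups. For orchiectomized against control the median log2 fold change of tested markers was 2.35 for thymocyte, 7.06 for lung, 3.24 for B cell and 3.67 for neutrophil lists. It was 0.09, 0.16, 0.09 and -0.09 for endothelial, macrophage, fibroblast and smooth muscle lists. In those last lists edgeR called 0 in that comparison (0 also at an unadjusted P under 0.05). The summed level of Mcm2 to Mcm7 ranged from 108 to 147 CPM in control, 141 to 172 CPM in orchiectomized and 93.4 to 119 CPM in DHT libraries. Mcm6 made up 35.7% to 57.3% of that sum in the orchiectomized libraries. The other 5 subunits summed to 73.5, 90.9, 85.1, 82.2 and 75.1 CPM in orchiectomized replicates 1 to 5, against at most 66.3 CPM in a control and 60.8 CPM in a DHT library, so that replicates 2, 3 and 4 were the highest. The summed level of 12 thymocyte markers was 5.07 to 18.3, 9.58 to 185 and 5.07 to 5.95 CPM in the same order, with Rag2 at 0 reads in 4 of 5 control and 5 of 5 DHT libraries. Next, 12 lung markers summed to 4.17 to 6.52, 7.49 to 7659 and 4.95 to 7.78 CPM, and 6 B cell markers to 3.47 to 8.86, 7.32 to 158 and 3.08 to 11.1 CPM. The highest 3 libraries for each of these lists were orchiectomized replicates 2, 3 and 4. Neutrophil markers summed to 0.749 to 2.27 CPM in control, 5.02 to 29.6 CPM in orchiectomized and 1.98 to 11.4 CPM in DHT libraries. Every orchiectomized library thus lay above every control library for neutrophil markers. Of 7 neutrophil markers 2 passed the filter, and both were called higher than control after orchiectomy, also without replicates 2 and 3 (median log2 fold change 3.22). Without replicates 2, 3 and 4 it was 3 of 3 (median 3.57). Endothelial markers summed to 603 to 936, 785 to 1107 and 479 to 644 CPM, so that every DHT library lay below every orchiectomized library. Of 5 endothelial markers 3 were called lower with DHT against orchiectomized, all 3 at an adjusted P under 0.05 (median log2 fold change -0.53), and 3 with DHT against control (median -0.47). Without replicates 2 and 3 the first count was 2 (median -0.52), and without replicates 2, 3 and 4 it was 1 (median -0.54). Smooth muscle markers summed to 13507 to 19455, 9941 to 19524 and 18725 to 23430 CPM. Of 5 germinal centre markers only S1pr2, a receptor for sphingosine-1-phosphate, passed the filter, and it made up nearly all of their sum. Its level was 16.2 to 26.8, 18.2 to 28.5 and 9.72 to 17.8 CPM in the same order. Macrophage markers summed to 209 to 584, 362 to 516 and 189 to 397 CPM, with 2 of 6 called lower with DHT against orchiectomized (median log2 fold change -0.76). For macrophage markers edgeR called 0 without replicates 2 and 3 (median -0.56, 1 lower at an unadjusted P under 0.05), and without replicates 2, 3 and 4 also 0 (median -0.22, 0 at an unadjusted P under 0.05). Fibroblast markers summed to 3973 to 5798, 3554 to 6292 and 2920 to 4468 CPM, with 1 of 6 called lower with DHT against orchiectomized (median -0.45, and -0.42 and -0.30 in the 2 smaller sets with 1 called in each) and 2 of 6 with DHT against control (median -0.44). Orchiectomized replicate 1 held thymocyte and B cell markers at 9.58 and 7.32 CPM, inside the control ranges, but lung markers at 13.5 CPM and neutrophil markers at 23.8 CPM, both above every control, with Mcm3 at 15.7 CPM and the highest Mcm6 of all libraries. Orchiectomized replicate 5 held thymocyte markers at 16.6 CPM, inside the control range. Its B cell, lung and neutrophil markers, at 14.0, 7.49 and 9.12 CPM, were each above every control. The libraries kept without replicates 2, 3 and 4 thus still held some of these transcripts. The part of these cells in the levels of the ring genes was not tested.

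**Figure D4:**
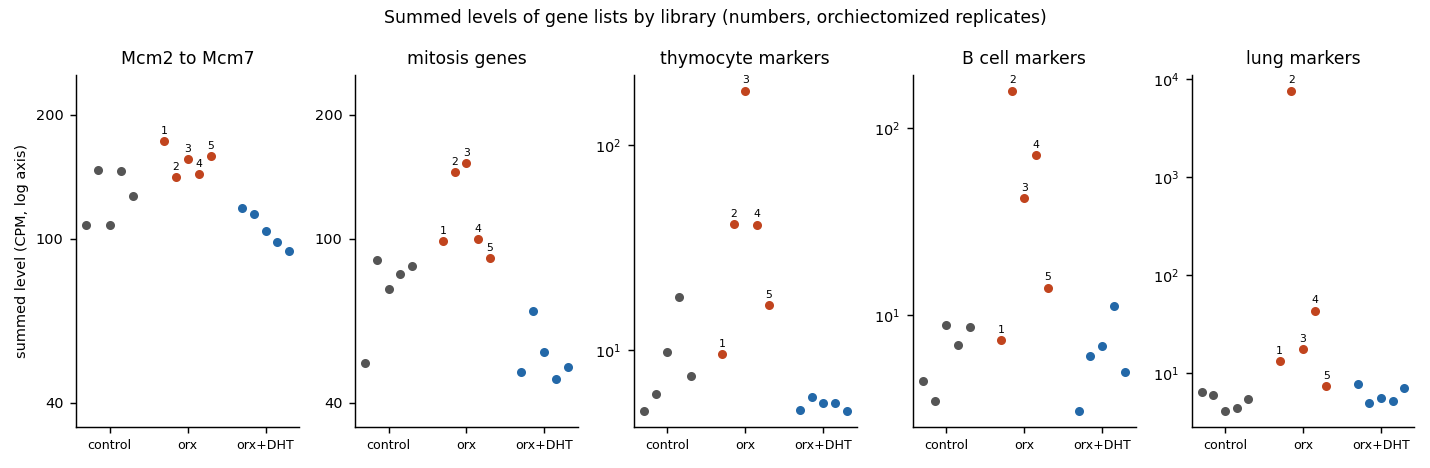
Summed level in CPM (log axes) of Mcm2 to Mcm7, of 24 mitosis genes and of thymocyte, B cell and lung markers in each library of the 3 groups, with the replicate number printed above orchiectomized libraries. Thymocyte markers reach 185 CPM in replicate 3 and lung markers 7659 CPM in replicate 2, and the sum of Mcm2 to Mcm7, of which Mcm6 is 35.7% to 57.3%, lies between 141 and 172 CPM in the orchiectomized libraries.

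The other genes of replication and of the cell cycle were examined as 5 lists of 110 genes in all, of which 106 were tested. Like the members, these lists were chosen with earlier results of these data known, so their counts and shares are a description. After orchiectomy 6 of 106 were called higher (5.66%, against 2.08% of all tested genes) and 1 lower (0.943%, against 1.13%). The higher genes were Pcna, the sliding clamp of the replication fork (log2 fold change 0.35, adjusted P = 0.29), Rnaseh2b, a subunit of ribonuclease H2 (0.49, adjusted P = 0.30), and the mitosis genes Kif11, Nusap1, Top2a and Cdc20 (1.01, 0.91, 0.94 and 0.59, adjusted P of 0.29, 0.28, 0.30 and 0.31). Rb1, the retinoblastoma repressor of E2F, was lower (-0.31, adjusted P = 0.28). Without replicates 2 and 3 edgeR called 0 of 106 in either direction, with 7 higher and 2 lower at an unadjusted P under 0.05. The log2 fold changes in that set were 0.33 for Pcna, 0.49 for Rnaseh2b and -0.27 for Rb1, close to those from all libraries, but 0.59 for Kif11, 0.63 for Nusap1, 0.49 for Top2a and 0.45 for Cdc20. Without replicates 2, 3 and 4 edgeR called Dut higher and Rb1 lower.

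With DHT against orchiectomized, edgeR called 33 of the 106 genes lower (31.1%, against 7.27% of all tested genes) and 0 higher (against 2.46%; 1 was higher at an unadjusted P under 0.05, and DESeq2 called 1 higher), and 19 were lower at an adjusted P under 0.05. At that threshold 2, Kif11 and Top2a, were lower without replicates 2 and 3, and 0 in edgeR without replicates 2, 3 and 4, where 19 were lower at an unadjusted P under 0.05 and where 1 of all 14468 genes tested passed that threshold in the lower direction. The mitosis list accounted for 19 of the 33, among 22 tested (86.4%), with a median log2 fold change of -1.07 beside -0.57 for the licensing genes. Kif11, the spindle motor, had a log2 fold change of -2.34 (SE 0.33, adjusted P = 0.0036), Top2a, the topoisomerase of chromosome segregation, -1.95 (SE 0.32, adjusted P = 0.0078) and Cenpe, a kinetochore motor, -1.85 (SE 0.37, adjusted P = 0.017). In the smaller sets of libraries the median log2 fold change of the mitosis list was -0.83 without replicates 2 and 3 and -0.82 without replicates 2, 3 and 4. In the same order Kif11 was -1.91 and -1.81, Top2a -1.49 and -1.30, and Cenpe -1.52 and -1.60. On the replication fork list 5 of 29 (17.2%) were called lower, including Pcna (-0.54, adjusted P = 0.016), the polymerase epsilon subunit Pole2 (-0.81, adjusted P = 0.030) and Uhrf1, which couples DNA methylation to replication (-1.30, adjusted P = 0.024). Of 11 nucleotide supply genes 3 (27.3%) were lower, among them both ribonucleotide reductase subunits Rrm1 (-0.39, adjusted P = 0.020) and Rrm2 (-1.52, adjusted P = 0.019). In the sets without replicates 2 and 3 and without replicates 2, 3 and 4, Rrm2 was -1.06 and -0.89, Rrm1 -0.29 and -0.20, and Uhrf1 -0.87 and -0.83, whereas Pcna was -0.52 and -0.50 and Pole2 -0.79 and -0.73. The median of the fork list was -0.36 from all libraries and -0.23 and -0.18 in these sets, and that of the nucleotide list -0.26, -0.23 and -0.25.

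Of the 5 lists, the share called lower with all 15 libraries was smallest among the factors that act on the same origins as the ring. In the smaller sets of libraries this list shared the lowest place with the G1 and S list. Without replicates 2, 3 and 4 it also shared that place with the nucleotide list. Of 22 tested genes of the other origin list, 2 (9.09%, near the 7.27% of all tested genes) were called lower with DHT, namely Topbp1 (-0.48, adjusted P = 0.040) and Dbf4, the activator of the kinase that phosphorylates the MCM ring (-0.69, adjusted P = 0.075), and the list median was -0.09, or -0.07 and -0.004 in the 2 smaller sets. Of 22 G1 and S control genes 4 (18.2%) were lower, with a list median of -0.19 (-0.18 and -0.15 in the smaller sets), among them Ccna2 (-1.08, adjusted P = 0.042), Ccnd1 (-0.90, adjusted P = 0.044) and E2f7 (-1.18, adjusted P = 0.097). Without replicates 2 and 3, 15 of the 33 genes were still called lower, 10 of them on the mitosis list and none on the origin or G1 and S lists, and without replicates 2, 3 and 4 it was 6 of the 33, namely Pcna and the mitosis genes Cdc20, Cenpe, Kif11, Top2a and Tpx2. Without replicates 2 and 3 the log2 fold changes were -0.61 for Dbf4, -0.40 for Topbp1 and -0.93 for Ccna2, but -0.55 for Ccnd1 and -0.40 for E2f7. With DHT against control 1 gene, Orc5, was called higher (0.32, adjusted P = 0.25) and 6 lower, among them Kif11 (-1.33, adjusted P = 0.12), Top2a (-1.01, adjusted P = 0.24) and Rrm1 (-0.27, adjusted P = 0.24).

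**Figure D5:**
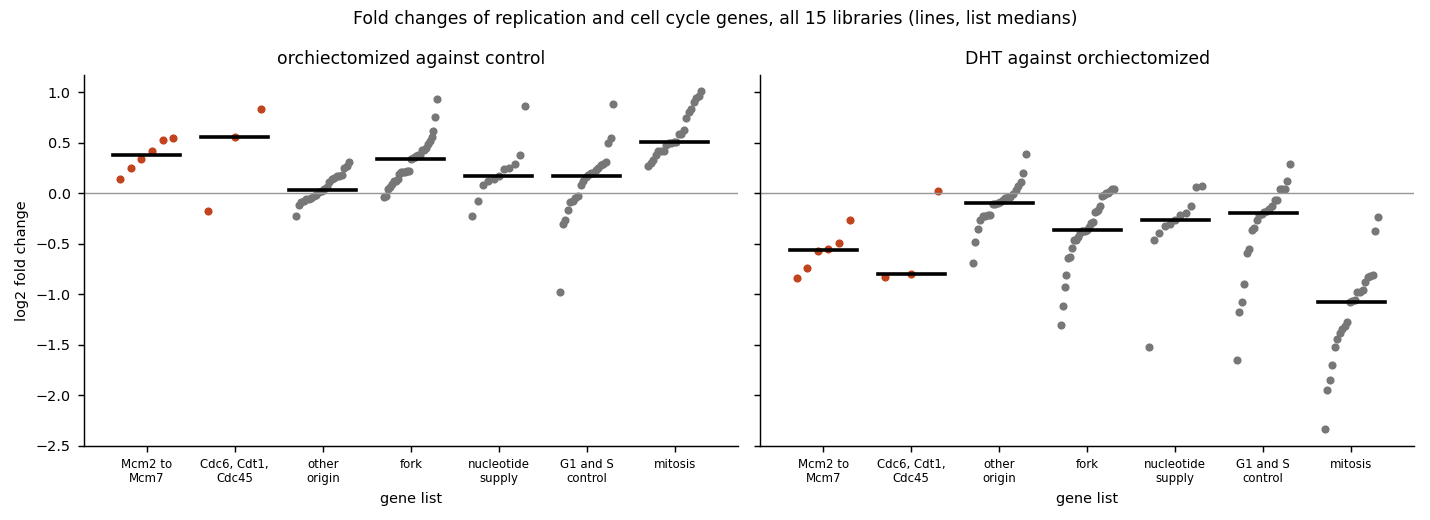
Log2 fold change of each tested gene of the ring and loading genes (red) and of the 5 other lists (grey), sorted within a list, from all 15 libraries; black lines are list medians. The mitosis list has the lowest median with DHT against orchiectomized, -1.07, and the median of the other origin factors is -0.09, with Dbf4 at -0.69 and Topbp1 at -0.48.

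Members of the ring did not all vary together across libraries. Over the 15 libraries the correlation (Pearson's r of log2 CPM) of each subunit with the mean of the other 5 was 0.91 for Mcm3, 0.89 for Mcm5, 0.84 for Mcm4 and 0.73 for Mcm2, but 0.50 for Mcm7 and 0.47 for Mcm6. After removal of group means it was 0.61, 0.63, 0.74 and 0.46 for the first 4 and -0.15 and 0.01 for Mcm7 and Mcm6. Cdt1, Cdc6 and Cdc45 gave 0.70, 0.69 and -0.27 with the ring mean, and 0.46, 0.31 and -0.47 after removal of group means. These values describe 15 libraries that share normalization and the group differences, and they carry no test.

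Outside the members, the genes whose levels followed the mean of Mcm2 to Mcm7 most closely among 14112 genes were Prcp (r = 0.97), Papss1 (0.96), Lbr (0.94), Mki67 (0.93) and Nucb2 (0.92), each over 15 libraries. Prcp, a lysosomal carboxypeptidase, had 42.3 ± 5.88 CPM after orchiectomy against 31.0 ± 5.36 in control and 26.2 ± 3.05 with DHT (SD, n = 5). Mki67, the proliferation marker, had 15.1 ± 6.02 CPM against 8.64 ± 2.97 and 5.25 ± 1.23. Orchiectomized replicates 1 to 5 held 10.1, 17.5, 24.5, 13.3 and 10.3 CPM of Mki67, against at most 11.3 CPM in a control. Replicates 2 and 3, which carry lung and thymocyte transcripts, were thus the highest. Papss1, which makes the sulfate donor of the cell, had 72.3 ± 2.78 CPM against 62.7 ± 5.76 and 57.0 ± 5.42. Lbr, the lamin B receptor, had 43.1 ± 4.19 CPM after orchiectomy against 35.5 ± 6.03 in control and 31.3 ± 3.17 with DHT. Nucb2, a calcium-binding protein, had 45.7 ± 3.88 CPM against 36.9 ± 8.34 and 29.5 ± 6.92. For Lbr and Nucb2 the control range reached into the orchiectomized range.

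Among the members 2 genes start close to a gene on the other strand in the RefSeq annotation. The start of Ap4m1, an adaptor protein subunit, lies 138 bases from a start of Mcm7, and its log2 fold changes were -0.17 (SE 0.19, adjusted P = 0.75) for orchiectomized against control and -0.08 (SE 0.19, adjusted P = 0.87) for DHT against orchiectomized. Ufd1, a factor of protein degradation whose start lies 322 bases from that of Cdc45, gave -0.12 (SE 0.09, adjusted P = 0.59) and 0.12 (SE 0.09, adjusted P = 0.45). Neither neighbour was called in these comparisons.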

How the data were processed

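The submitters' processing notes name STAR, Cufflinks, DESeq2 and mm10; the counting program, annotation and strand setting are not given in the sources used here. The deposited files hold whole-number read counts per gene, 1 poly(A) library per aorta. Rows naming no gene were left out (no feature, 6.26% to 14.4% of reads; ambiguous, 1.34% to 1.97%).

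Genes passing filterByExpr (14121) were fitted with edgeR 4.0.16 in R 4.3.3 by the quasi-likelihood test with TMM factors and 3 groups of 5. Genes with an unadjusted P under 0.01 were called, and adjusted P values are Benjamini-Hochberg over all tested genes. CPM use TMM effective library sizes, and log2 CPM a prior count of 3. DESeq2 1.42.0 was an alternative. The members and lists were chosen with earlier results of these data known. From the lists, all genes called with all libraries were named for orchiectomized against control and for DHT against control. For DHT against orchiectomized some of those with the smallest P were named. The 5 genes most like the ring mean, neighbours within 1000 bases and markers were also named. The labels give no batch and tie replicate numbers to no shared litter or day.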

Additional observations from a re-analysis of the deposited data

Results flagged for a closer look

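A library that stood far from the other 4 of its group was sought in 30 groups of 5 (10 genes in 3 groups), as a gap to the nearest library of more than 0.71 of the group's range, which chance gives in about 1 in 20 groups. It was found in 2. Cdt1 was 6.11 CPM in orchiectomized replicate 2, the library with lung transcripts, a gap of 0.825 of the range. Mcm2 was 6.42 CPM in DHT replicate 4, below the other 4 DHT libraries by 0.755 of the range.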

How the results depend on the processing

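The median log2 fold change of the 9 genes moved by less than 1 SD of that median between libraries under all 22 alternatives in each comparison, with ranges of 0.31 to 0.54, -0.65 to -0.48 and -0.28 to -0.14. That SD was 0.24, larger in size than the DHT against control median of -0.16. In that comparison even a change of sign could have counted as no move. Leaving out each library in turn gave 0.33 to 0.54, -0.65 to -0.48 and -0.28 to -0.14. Of the 9 genes, the number called for orchiectomized against control was 1 without orchiectomized replicates 2 and 3 and 1 without replicates 2, 3 and 4 (chosen after seeing the data). In these sets 1.04% and 1.13% of all genes were called. At an adjusted P under 0.05 in edgeR it was 0 (5 at an unadjusted P under 0.05, and 2 called by DESeq2), where 0 of all 14121 tested genes passed. The number called was 1 to 3 with each library left out in turn. It was 1 without control replicate 1 or 3 and without orchiectomized replicate 3 or 4, Mcm3 being the gene left. For DHT against orchiectomized DESeq2 called 5 lower (Mcm2 to Mcm6) in place of 3, where it called 7.53% of all genes lower. Among the other 106 genes 7 were called for orchiectomized against control in the main analysis, 4 with all genes of at least 1 count, 4 with only the groups compared, 0 without replicates 2 and 3, and 2 without replicates 2, 3 and 4. At an adjusted P under 0.05 it was 0 (27 at an unadjusted P under 0.05, and 10 by DESeq2), where 0 of all 14121 tested genes passed. The number called was 2 without control replicate 1 or 3, 3 without orchiectomized replicate 2 or DHT replicate 3, 4 without orchiectomized replicate 4 or DHT replicate 5, and 12 without orchiectomized replicate 5. For DHT against orchiectomized 15 were called without replicates 2 and 3, 6 without replicates 2, 3 and 4, 19 at an adjusted P under 0.05, and 21 (without DHT replicate 5) to 34 with each library left out. For DHT against control the number went from 7 to 0 at an adjusted P under 0.05 (20 at an unadjusted P under 0.05, and 7 by DESeq2), where 16 of all tested genes were higher and 21 lower. With each library left out the number called went from 2 (without DHT replicate 5) to 11 (without control replicate 1). It was 3 without control replicate 2, 4 or 5 or DHT replicate 3, and 4 without DHT replicate 4. The causes were not tested, beyond fewer libraries in the fits that leave some out.

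Deviations of same-numbered libraries had correlations of mixed sign (5 of 15 pairs over 0.1, range -0.466 to 0.463). They were not compared with differently numbered pairs. The labels give no pairing of the mice by number, and whether there was one was not tested. With a replicate block 2 of the 9 genes were called higher for orchiectomized against control (1.27% of all genes), 3 lower for DHT against orchiectomized (6.06%) and 0 in edgeR in either direction for DHT against control (2.78%). The other 106 genes gave 6, 29 and 4 calls (against 7, 33 and 7), where 2.02%, 7.61% and 2.78% of all genes were called.

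Depth limits Mcm10, Cdc6 and Cdt1, which had 1 to 69 reads per library, and differences in these genes were not resolvable beyond the SEs given.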

Other observations

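The ring subunits that followed the others least, Mcm6 and Mcm7, were each compared with all tested genes, a choice made after their values were seen. The genes whose levels were most like those of Mcm6 over the 15 libraries were Pcsk5, a proprotein convertase (r = 0.93), Plod2, a lysyl hydroxylase of collagen (0.93), Tmem263 (0.92), Actr3, a subunit of the Arp2/3 complex (0.91), Morf4l1 (0.91) and Slc39a1, a zinc transporter (0.91). Pcsk5 had 53.2 ± 15.7 CPM in control, 70.1 ± 19.8 CPM in orchiectomized and 37.1 ± 10.1 CPM in DHT libraries (SD, n = 5), and Plod2 99.4 ± 31.6, 111 ± 30.0 and 74.2 ± 16.0 CPM.

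The genes most like Mcm7 were St8sia2 (r = 0.92), Gpr137b (0.91), Cd37, a tetraspanin of leukocytes (0.91), Coro1a, a coronin of hematopoietic cells (0.90), Cotl1 (0.90) and Blk, a B cell kinase that is also on the B cell marker list (0.90). Cd37 ranged from 3.71 to 6.66 CPM in control, 6.24 to 36.1 CPM in orchiectomized and 3.59 to 5.80 CPM in DHT libraries, and Coro1a from 16.5 to 31.8, 30.9 to 122 and 14.9 to 28.4 CPM. These correlations describe 15 libraries, 3 of which carry transcripts of lymphoid or lung cells, and no test was made.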
